A study of Mus musculus with 6 samples.

Results

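Voltage-gated and potassium channel genes were described in neural progenitors derived from mouse embryonic stem cells (mESCs). Members were the protein-coding genes of the count table whose GENCODE M21 symbols start with Kcn, with Scn and a digit, or with Cacna, Cacnb, Cacng or Hcn, without a pair that the definition leaves out. They numbered 136 of 48526 genes in the table and were sorted by symbol into 18 families. The 3 libraries of the line labelled -/- for Dmrta2 were compared with the 3 libraries of the line labelled flox/flox, which served as the control. Each genotype was represented by 1 mESC line, so genotype and line cannot be told apart, and p-values measure the spread between samples of a line. Both lines were differentiated in N2B27 medium with LDN193189 (100 nM) and SB431542 (10 µM) to day 4, which block BMP and activin or TGF-beta receptors. Medium of both lines also held the Wnt pathway inhibitor XAV939 (1 µM) to day 6 and the Hedgehog pathway inhibitor cyclopamine (1 µM) from day 2 to day 10. Cells were replated on day 5 for neuronal differentiation, and RNA was taken on day 8.

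Voltage-gated channels open when the membrane potential changes. Sodium channels carry the upstroke of the action potential, calcium channels couple electrical activity to secretion and gene expression, and potassium channels repolarise the membrane or hold it at rest. Most are built from a pore-forming subunit with auxiliary subunits that set trafficking and gating. Neural progenitors are known for a resting membrane set largely by potassium leak, and differentiating neurons acquire sodium, calcium and delayed rectifier currents.

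The libraries held between 24565560 and 39646793 counts, and the letters A to C below name the columns of a genotype. The count of Dmrta2 was higher in the libraries labelled -/- than in those labelled flox/flox, at 409, 414 and 439 CPM in -/- libraries A to C, against 85.2, 75.1 and 79.2 CPM in flox/flox libraries A to C. That count spans the whole gene and does not check the deletion, so directions are those of the labels. Genes of chromosome 11 had a median log2 difference of 0.49, against -0.02 for all other genes, and members on that chromosome are named as such. Among markers of other states, 14 of 15 neuron markers rose, where 17.9% of all tested genes rose and 17.4% fell. Those shares also stand beside each marker list below. The summed level of neuron markers was 3590 to 5866 CPM in -/- libraries and 1905 to 2953 CPM in flox/flox libraries. Without flox/flox A, flox/flox B or -/- B, 9, 6 and 11 of the 15 rose. Rbfox3 and Mapt lie on chromosome 11, and with the shift of that chromosome removed 12 of the 15 rose. Of the 10 progenitor markers 6 rose and 3 fell, between 3576 and 3860 CPM in -/- libraries and between 3648 and 4159 CPM in flox/flox libraries. Without flox/flox B 4 rose and 1 fell, and without -/- B 3 rose and 1 fell. Epithelium and choroid plexus markers fell in 6 of 9 tested, of 10 listed. Their sum was 109 to 199 CPM in -/- libraries and 386 to 512 CPM in flox/flox libraries. Smooth muscle and mesenchyme markers rose in 1 and fell in 3 of 10, at 191 to 277 CPM in -/- libraries and 388 to 977 CPM in flox/flox libraries, and 5 fell without flox/flox C. Pluripotency markers fell in 3 of 7 tested, of 8 listed, and 1 fell without flox/flox A or without flox/flox B. Their sum was 63.1 to 88.0 CPM in -/- libraries and 104 to 113 CPM in flox/flox libraries. The part that these markers' cells had in the channel differences was not tested, and in bulk RNA a change in the number of cells of a type and a change in RNA per cell cannot be told apart.

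Of the 136 channel genes, 101 had enough reads to be tested, 31 rose in the -/- libraries, against 15 fell. The members called made up 45.5% of those tested, where 35.3% of all 20549 tested genes were called. The members that rose were 30.7%, beside 17.9% of all genes, and the members that fell were 14.9%, beside 17.4% of all genes, a share near the background. Potassium channel symbols, 64 of the tested members, rose in 14 (21.9%) and fell in 10 (15.6%), both nearer to the shares of all genes. At a fold of at least 2, 20 members rose and 9 fell, where 4.79% and 6.60% of all tested genes did. The median log2 difference of the tested members was 0.29, beside -0.0025 for all tested genes. Pore-forming subunits rose in 25 of 74 tested and fell in 11, and auxiliary subunits rose in 6 of 26 and fell in 4. Libraries of the groups did not overlap for 34 members with -/- above and for 20 with -/- below, where 25.5% and 25.4% of all tested genes were so placed. When each library was left out in turn, 22 of the rises and 9 of the falls were called every time.

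**Figure D1:**
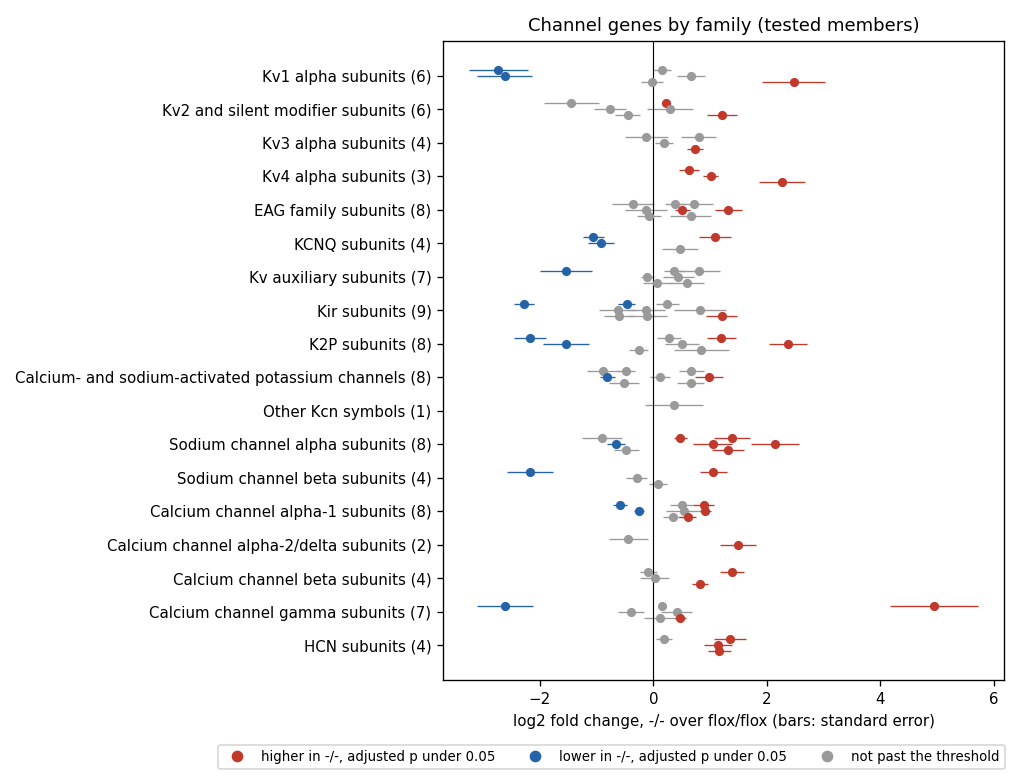
Log2 fold change of the 101 tested channel genes, -/- over flox/flox, with standard errors, 1 row per family and the number tested in parentheses. Red points (31) were higher and blue points (15) lower at an adjusted p under 0.05, and Kv4 subunits have no point left of 0.

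The remaining 35 members did not pass the filter on low counts, and none held more than 60 reads over the 6 libraries or reached more than 0.570 CPM in any. Kcna10 and Kcnj1 had no read. Among the untested were the skeletal muscle subunits Scn4a and Cacna1s, at 9 and 25 reads. Of the tested members, Scn11a and Cacng3 reached the filter level only in -/- libraries, and Cacng6 and Kcng3 only in flox/flox libraries. For such genes a difference was a condition of being tested. Scn11a and Cacng3 are among the 31 rises, and Cacng6 is among the 15 falls. A filter of 1 CPM in 3 libraries left them untested, and 28 members then rose and 14 fell.

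Starts of transcription were available from RefSeq (GRCm38.p6) for 100 of the 136 members, in 136 windows of 300 bases. To show what the starts of the most clearly changed genes look like, the windows of 3 members follow, from 250 bases before the start to 50 after it, on the gene's strand. They are among the members with the smallest adjusted p in each direction that have a single window, Kcnh7 for the rises and Kcnj2 and Kcnk1 for the falls. Capitals mark the GC box GGGCGG and the E-box CAGCTG, read on both strands, which do not overlap each other here.
Kcnh7, chr2:63184238-63184537, minus strand: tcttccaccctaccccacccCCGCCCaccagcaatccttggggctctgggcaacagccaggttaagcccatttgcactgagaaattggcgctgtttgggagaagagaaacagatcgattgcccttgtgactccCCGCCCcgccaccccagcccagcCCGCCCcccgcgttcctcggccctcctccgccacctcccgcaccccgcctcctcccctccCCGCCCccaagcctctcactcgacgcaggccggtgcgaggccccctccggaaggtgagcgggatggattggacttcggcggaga
Kcnj2, chr11:111065914-111066213, plus strand: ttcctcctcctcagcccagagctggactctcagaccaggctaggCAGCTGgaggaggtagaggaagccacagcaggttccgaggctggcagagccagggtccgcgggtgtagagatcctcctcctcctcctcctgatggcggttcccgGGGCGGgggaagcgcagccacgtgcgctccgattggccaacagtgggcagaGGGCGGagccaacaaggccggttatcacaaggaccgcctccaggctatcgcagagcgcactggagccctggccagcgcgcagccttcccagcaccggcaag
Kcnk1, chr8:125994852-125995151, plus strand: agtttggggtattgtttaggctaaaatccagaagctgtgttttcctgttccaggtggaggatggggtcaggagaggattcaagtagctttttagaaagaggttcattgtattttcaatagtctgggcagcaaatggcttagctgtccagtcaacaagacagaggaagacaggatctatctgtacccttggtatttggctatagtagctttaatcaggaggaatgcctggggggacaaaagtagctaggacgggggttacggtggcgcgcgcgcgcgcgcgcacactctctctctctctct
Kcnh7 holds 4 GC boxes, Kcnj2 holds 2 GC boxes and 1 E-box, and Kcnk1 holds neither. The rising members with windows were 19 genes and the falling members 11. The GC box was found in 12 of 24 windows of rising members, in 5 of 16 of falling members and in 35.7% of all 32851 windows in the table. The E-box CAGCTG was in 25.0% of the windows of rising members, 31.3% of those of falling members and 16.3% of all windows. The E-box CAGATG was in 8.33%, 25.0% and 17.2%, and the TATA box TATAAA in 4.17%, 0% and 13.6%, in the same order. In windows of tested members that were not called, the GC box was in 50.8%, CAGCTG in 25.4%, CAGATG in 15.9% and TATAAA in 4.76%. The core of the RE1 element read by the repressor REST was in 0 of the 136 windows and in 12 of all windows (0.037%). At so small a share, 136 windows are too few to show whether the members differ. These matches are a description of letters in 300 bases.

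Sodium channel alpha subunits, the pores of the action potential upstroke, rose in 5 of 8 tested members and fell in 1. Scn2a, an alpha subunit of axons, measured 16.6, 17.9 and 27.9 CPM in -/- libraries A to C, against 6.35, 7.07 and 11.6 CPM in flox/flox libraries A to C. All 3 -/- libraries lay above every flox/flox library, a log2 difference of 1.32 ± 0.28 (SE, adjusted p = 0.00972). Scn1a, typical of inhibitory neurons, measured 3.81, 4.90 and 6.79 CPM in the -/- libraries, against 1.35, 1.75 and 2.87 CPM in the flox/flox libraries (1.38 ± 0.32, adjusted p = 0.0135). Scn3a, the alpha subunit of embryonic brain, had the highest length-scaled level of the family in both groups, at 7.32 CPM per kb of exon in -/- libraries and 3.54 in flox/flox libraries. It measured 62.8, 80.4 and 130 CPM in -/- libraries A to C, against 29.6, 38.9 and 63.9 CPM in flox/flox libraries A to C (1.05 ± 0.34, adjusted p = 0.0470). The groups overlapped for Scn3a, since flox/flox C lay just above -/- A. Scn8a, an alpha subunit of mature axons with the second highest length-scaled level, rose 1.39-fold. Scn11a, known from sensory neurons, rose to 0.566 ± 0.140 CPM in -/- libraries, against 0.126 ± 0.0651 CPM in flox/flox libraries (SD, n = 3). It reached the filter level only in -/- libraries.

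Scn9a, an alpha subunit known from peripheral neurons, fell 1.57-fold, with 4.68, 5.07 and 6.33 CPM in -/- libraries A to C, against 9.60, 7.26 and 8.33 CPM in flox/flox libraries A to C. It lies in the sodium channel cluster of chromosome 2 (GRCm38), beside genes that rose. In order of position the cluster holds Scn3a (65457118 to 65567627, minus strand), Scn2a (65620771 to 65767447, plus strand), Scn1a (66270778 to 66440840, minus strand), Scn9a (66480080 to 66634962, minus strand) and Scn7a (66673425 to 66784914, minus strand). The first 3 rose, and the 2 at the far end had log2 differences of -0.65 and -0.91. Scn7a, a sodium sensor of low voltage sensitivity, did not pass (adjusted p = 0.0806) but did without -/- B. Scn3a made up 47.0% ± 6.62 of the summed length-scaled level of the family in -/- libraries and 35.5% ± 5.57 in flox/flox libraries (SD, n = 3). The call of Scn3a was lost without flox/flox A, flox/flox B, -/- B or -/- C, with DESeq2, with a filter of 1 CPM and with the chromosome 11 offset removed. The call of Scn8a was lost without flox/flox B or -/- B, that of Scn1a without flox/flox B, and that of Scn9a without flox/flox A, -/- A or -/- B.

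Sodium channel beta subunits, single-pass proteins that also act in cell adhesion, went in both directions. Scn3b, the beta subunit of embryonic neurons, measured 24.9, 24.2 and 41.1 CPM in -/- libraries A to C, against 11.4, 14.3 and 17.5 CPM in flox/flox libraries A to C (1.06 ± 0.24, adjusted p = 0.0126). Scn4b, which is linked to resurgent sodium current, measured 0.457, 0.397 and 0.281 CPM in the -/- libraries, against 2.74, 1.33 and 1.16 CPM in the flox/flox libraries. That fall was 4.53-fold (adjusted p = 0.00579), and the groups of both genes stood apart. Scn2b had a log2 difference of 0.08 and did not pass.

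Calcium channel alpha-1 subunits changed in their make-up. The genes of the high-voltage-activated channels of presynaptic terminals rose, while the T-type gene Cacna1g and the L-type gene Cacna1c fell. Cacna1a, the P/Q-type pore, measured 19.0, 20.8 and 23.0 CPM in -/- libraries A to C, against 10.9, 11.4 and 10.8 CPM in flox/flox libraries A to C. Its difference of 0.92 ± 0.10 had the smallest adjusted p of the rising members (0.00073). Cacna1b, the N-type pore, averaged 47.5 ± 9.83 CPM in -/- libraries and 31.2 ± 3.11 CPM in flox/flox libraries, and Cacna1e, the R-type pore, 12.6 ± 3.00 CPM in -/- libraries and 6.80 ± 0.412 CPM in flox/flox libraries (SD, n = 3). Both rose, by 1.52-fold and 1.85-fold, and their groups did not overlap.

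Cacna1g, which opens at low voltage and is the most abundant member of the family by length-scaled level, measured 109, 120 and 130 CPM in -/- libraries A to C. In flox/flox libraries A to C it measured 210, 179 and 150 CPM, a log2 difference of -0.59 ± 0.12 (adjusted p = 0.00962). The gene lies on chromosome 11, whose genes were shifted upward as a whole, and with that offset removed its difference was -1.10. Its share of the summed length-scaled level of alpha-1 subunits was 46.9%, 44.8% and 41.6% in -/- libraries A to C, against 69.3%, 61.9% and 57.0% in flox/flox libraries A to C. Of the other T-type genes, Cacna1h had 61.3 ± 15.4 CPM in -/- libraries and 43.4 ± 7.29 CPM in flox/flox libraries (SD, n = 3) and did not pass (adjusted p = 0.0856). It did pass without -/- A, with no low-count filter, with a block for column letter and with DESeq2. Cacna1i did not pass either, with a log2 difference of 0.54, and did without flox/flox C. The fall of Cacna1c was 1.19-fold (adjusted p = 0.0487), and its call was lost whichever library was left out, with no low-count filter and with the chromosome 11 offset removed. The call of Cacna1b was lost without flox/flox A or flox/flox B.

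**Figure D2:**
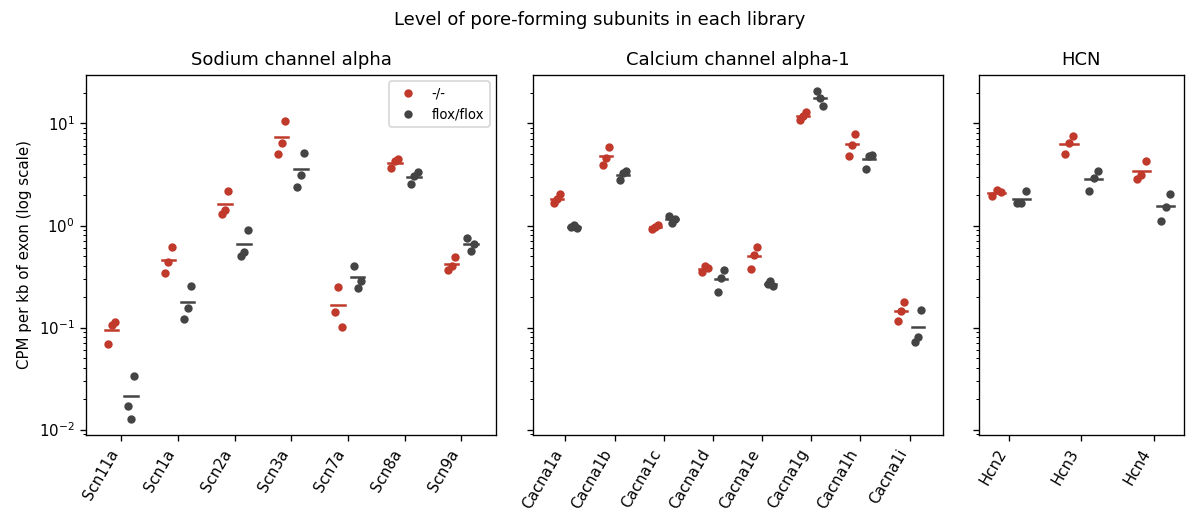
Level of tested sodium channel alpha, calcium channel alpha-1 and HCN genes in CPM per kb of exon on a log axis, 1 point per library (red -/-, grey flox/flox) with bars at the mean of 3. Cacna1g is the highest point cloud in both groups, with all -/- libraries below all flox/flox libraries, while Scn2a, Cacna1a, Hcn3 and Hcn4 have all -/- libraries above.

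Auxiliary calcium channel subunits included some of the largest shifts in level. Cacna2d1, whose alpha-2/delta protein raises the surface density of calcium channels and is the target of gabapentin, measured 120, 150 and 215 CPM in -/- libraries A to C. It measured 38.7, 49.4 and 84.5 CPM in flox/flox libraries A to C, so every -/- library was higher, by 2.81-fold overall (1.49 ± 0.32, adjusted p = 0.00961). Cacna2d3 of the same family had 2.79 ± 1.20 CPM in -/- libraries and 3.76 ± 1.03 CPM in flox/flox libraries (SD, n = 3) and did not pass.

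Beta subunits, which carry alpha-1 subunits to the membrane, rose in 2 of 4 members. Cacnb1, on chromosome 11 and best known as the beta subunit of skeletal muscle, measured 40.4, 49.0 and 68.1 CPM in -/- libraries A to C, against 16.2, 19.8 and 24.4 CPM in flox/flox libraries A to C. The log2 difference was 1.38 ± 0.22 (adjusted p = 0.0029), and 0.87 with the chromosome 11 offset removed. Markers of cardiac and skeletal muscle were low throughout, with 14 genes summing to 13.1 to 13.6 CPM in -/- libraries and 14.3 to 18.8 CPM in flox/flox libraries. Only 7 of the 14 had enough reads to be tested, and of these none rose and Acta1 fell. Whether muscle cells have a part in the rise of Cacnb1 was not tested. Cacnb2 rose 1.77-fold, and Cacnb3, the most abundant beta subunit by length-scaled level, had 71.3 ± 14.3 CPM in -/- libraries and 75.8 ± 7.98 CPM in flox/flox libraries (SD, n = 3). Of the summed length-scaled level of beta subunits, Cacnb1 made up 36.4%, 36.4% and 39.4% in -/- libraries A to C, against 16.7%, 17.9% and 19.5% in flox/flox libraries A to C.

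Gamma subunits, of which several regulate AMPA receptors, rose in 2 of 7 tested members and fell in 1. Cacng4 and Cacng7 had the highest length-scaled levels, and Cacng4 (chromosome 11) averaged 140 ± 18.7 CPM in -/- libraries and 101 ± 5.43 CPM in flox/flox libraries (SD, n = 3). Its rise of 0.47 was of the size of the chromosome 11 shift, and with the offset removed the difference was -0.043 and did not pass. Cacng3, an AMPA receptor regulator of the forebrain, had 51 reads over the -/- libraries and 1 over the flox/flox libraries. The ratio of these reads per library size was 40.1, with a 95% exact interval for counting error of 6.88 to 1615. That interval pools the reads of a group and leaves out the spread between libraries. Cacng3 reached the filter level only in -/- libraries, so a difference was a condition of testing it, and the ratio is a description only. It measured 0.381, 0.425 and 0.739 CPM in the -/- libraries, and 0, 0 and 0.0398 CPM in the flox/flox libraries. Cacng6, a gamma subunit of muscle, fell to 0.181 ± 0.0348 CPM in -/- libraries, against 1.12 ± 0.648 CPM in flox/flox libraries (SD, n = 3), a log2 difference of -2.61, and -2.02 without flox/flox A. It reached the filter level only in flox/flox libraries. The fitted log2 difference of Cacng3 was 4.95, and 7.01 without flox/flox C, which holds its single control read.

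Of the genes of hyperpolarization-activated channels, which carry the pacemaker current, Hcn3 and Hcn4 rose. Hcn3 measured 26.3 ± 5.31 CPM in -/- libraries and 11.7 ± 2.61 CPM in flox/flox libraries (SD, n = 3), a log2 difference of 1.16 ± 0.20 (SE, adjusted p = 0.00431). Of the exonic bases of Hcn3, 17.1% lie under exons of Pklr. Hcn4, the pacemaker subunit of the sinus node and thalamus, measured 17.4, 19.0 and 26.2 CPM in the -/- libraries, against 6.72, 9.23 and 12.5 CPM in the flox/flox libraries (1.14 ± 0.24, adjusted p = 0.0103). The groups stood apart for both genes. Hcn2 had 6.69 ± 0.487 CPM in -/- libraries and 5.86 ± 0.892 CPM in flox/flox libraries (SD, n = 3) and did not pass (adjusted p = 0.334).

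The A-type potassium channel subunits of the Kv4 family rose in 3 of 3 members. Kcnd2, a major A-type subunit of dendrites, measured 3.38, 3.88 and 8.23 CPM in -/- libraries A to C, against 1.15, 0.722 and 1.31 CPM in flox/flox libraries A to C (2.27 ± 0.41, adjusted p = 0.00511). Kcnd1 rose 2.02-fold to 7.72 ± 0.632 CPM in -/- libraries, against 3.82 ± 0.356 CPM in flox/flox libraries (SD, n = 3). Kcnd3, the most abundant of the 3, rose 1.55-fold, a call lost without flox/flox A, flox/flox B or -/- C. All groups of this family stood apart. Of the cytoplasmic KChIP subunits that bind Kv4 channels, Kcnip1 (chromosome 11) fell, with 2.90, 1.36 and 3.62 CPM in -/- libraries A to C, against 10.0, 9.12 and 3.55 CPM in flox/flox libraries A to C. Flox/flox C lay among the -/- libraries, and the call (adjusted p = 0.0339) was lost without flox/flox A, flox/flox B, -/- A or -/- B. Kcnip1 was the 1 called member among 7 tested auxiliary subunits of Kv channels. Kcnab2, the most abundant of these, had 11.1 ± 1.08 CPM in -/- libraries and 11.9 ± 0.911 CPM in flox/flox libraries (SD, n = 3).

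Shaker-type Kv1 genes rose in 1 and fell in 2 of 6 tested members. Kcna1, which limits axonal excitability, measured 1.42, 1.28 and 0.422 CPM in -/- libraries A to C, against 10.6, 7.45 and 3.19 CPM in flox/flox libraries A to C (-2.73 ± 0.52, adjusted p = 0.00636). Kcna5, known from cardiac and smooth muscle, measured 2.08, 1.28 and 1.55 CPM in the -/- libraries, against 17.4, 8.09 and 4.70 CPM in the flox/flox libraries. Its fall was 6.14-fold, and 3.88-fold without flox/flox A. Without that library the log2 difference of Kcna1 was -2.31. Flox/flox A also had the highest sum of smooth muscle and mesenchyme markers. Whether cells with those markers have a part in either fall was not tested. Both genes lie in a cluster on chromosome 6 with Kcna6, in the order Kcna5 (126532551 to 126535412), Kcna1 (126640397 to 126646384) and Kcna6 (126708329 to 126740674), all on the minus strand. Kcna6 had 12.2 ± 0.997 CPM in -/- libraries and 10.9 ± 2.11 CPM in flox/flox libraries (SD, n = 3) and did not pass, and 39.6% of its exonic bases lie under another gene on the opposite strand. Kcna4, an A-type member of the family, rose 5.56-fold to 1.22, 1.19 and 2.67 CPM in -/- libraries A to C, against 0.338, 0.0760 and 0.478 CPM in flox/flox libraries A to C. Kcna5 made up 12.8% ± 3.02 of the summed length-scaled level of the family in -/- libraries and 40.4% ± 11.3 in flox/flox libraries (SD, n = 3).

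**Figure D3:**
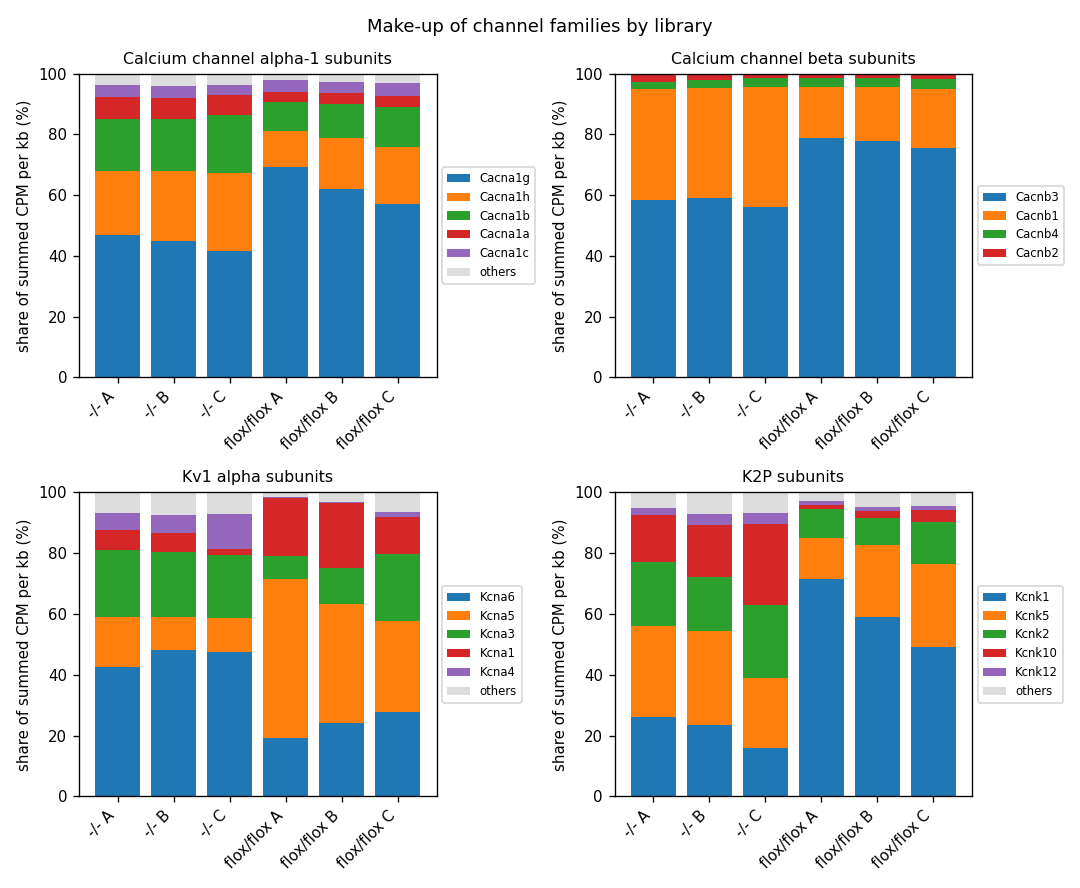
Share of the summed length-scaled level (CPM per kb of exon, in percent) held by each subunit in 4 families, with 1 bar per library and -/- libraries on the left. The bars of Cacna1g, Kcna5 and Kcnk1 are shorter, and those of Cacnb1 and Kcnk10 longer, in each -/- library than in each flox/flox library.

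Kcnb2, a delayed rectifier of the Kv2 family, measured 3.79, 3.52 and 5.77 CPM in -/- libraries A to C, against 1.49, 1.71 and 2.43 CPM in flox/flox libraries A to C. The groups stood apart, and the rise was 2.32-fold (1.21 ± 0.26, adjusted p = 0.0108). None of the silent subunits that assemble with Kv2 was called. Kcng3, with a log2 difference of -1.44, passed without flox/flox C and with a block for column letter, as did Kcns3. Kcng1 passed without flox/flox A, and all of these were falls. Kcng3 reached the filter level only in flox/flox libraries, so a difference was a condition of testing it. Kcnc1, a fast Kv3 subunit, measured 20.4, 19.8 and 25.7 CPM in -/- libraries A to C, against 11.4, 13.3 and 14.9 CPM in flox/flox libraries A to C (0.74 ± 0.14, adjusted p = 0.0063). Kcnc2 of the same family, with a log2 difference of 0.80, missed the threshold, which it passed without -/- A and with a block for column letter. Of 8 genes of the EAG family 2 rose and the others did not pass. Kcnh7, of the ERG type, measured 5.57, 6.01 and 8.34 CPM in the -/- libraries, against 3.04, 1.90 and 2.99 CPM in the flox/flox libraries (1.32 ± 0.23, adjusted p = 0.00474). Kcnh2, the ERG gene of cardiac repolarisation and the most abundant of the family, rose 1.42-fold to 51.2 ± 8.67 CPM in -/- libraries, against 36.0 ± 3.78 CPM in flox/flox libraries (SD, n = 3). Its call was lost without flox/flox A or flox/flox B.

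Of the KCNQ family, which carries the M-current that restrains repetitive firing, Kcnq5 fell to 3.40 ± 0.998 CPM in -/- libraries, against 6.49 ± 1.05 CPM in flox/flox libraries (SD, n = 3). The groups stood apart and the fall was 1.89-fold (-0.92 ± 0.23, adjusted p = 0.0179), a call lost without flox/flox B or -/- B. Kcnq3, a subunit of neuronal M-channels, had 10.5 ± 3.26 CPM in -/- libraries and 7.52 ± 3.15 CPM in flox/flox libraries (SD, n = 3) and did not pass (adjusted p = 0.297).

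Among inward rectifiers, which hold the resting potential near the potassium equilibrium, the call with the smallest adjusted p of all channel genes was a fall. Kcnj2, the gene of the classical strong inward rectifier, measured 3.79, 3.35 and 2.78 CPM in -/- libraries A to C, against 19.0, 13.6 and 15.8 CPM in flox/flox libraries A to C. The fall was 4.85-fold (-2.28 ± 0.17, adjusted p = 0.000338) and every -/- library lay far below. Kcnj2 is on chromosome 11 (111066164 to 111076821, plus strand), and with the offset of that chromosome removed its difference was -2.79. Kcnj10, the rectifier of astrocytes, rose 2.31-fold to 1.83 ± 0.498 CPM in -/- libraries, against 0.787 ± 0.160 CPM in flox/flox libraries (SD, n = 3). Of the astrocyte markers, Gfap and S100b had too few reads to be tested, and Aqp4 did not pass, with a log2 difference of -0.36. Aldh1l1 rose to 7.98 ± 0.910 CPM in -/- libraries, against 4.95 ± 0.783 CPM in flox/flox libraries (SD, n = 3, adjusted p = 0.0118). Glial markers summed to 82.0 to 101 CPM in -/- libraries and 65.9 to 79.5 CPM in flox/flox libraries. Of the 11 listed, 8 had enough reads to be tested, and 2 rose and 1 fell, with none rising without flox/flox B. Of all tested genes, 17.9% rose and 17.4% fell. Kcnj3, a subunit of G protein-gated channels, fell 1.38-fold (adjusted p = 0.0464), a call lost without flox/flox A, flox/flox B, -/- A or -/- B and with no low-count filter. Of its exonic bases, 31.1% lie under a gene on the other strand. The other 6 tested members of the family did not pass.

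The K2P leak channels, which set a standing potassium conductance, rose in 2 of 8 tested members and fell in 2. By the mean length-scaled level of 3 libraries, Kcnk1 led the family in flox/flox libraries and Kcnk5 in -/- libraries, although Kcnk10 and Kcnk2 stood above Kcnk5 in -/- C. Kcnk1 measured 6.79, 5.84 and 4.36 CPM in -/- libraries A to C, against 36.9, 21.5 and 18.7 CPM in flox/flox libraries A to C, a fall of 4.52-fold (-2.18 ± 0.28, adjusted p = 0.00147). Kcnk10, a leak channel gated by stretch and lipids, measured 15.7, 16.6 and 28.4 CPM in -/- libraries A to C, against 2.80, 3.23 and 5.78 CPM in flox/flox libraries A to C, a rise of 5.16-fold (2.37 ± 0.33, adjusted p = 0.00197). In both genes the groups were far apart. Of the summed length-scaled level of the family, Kcnk1 held 26.1%, 23.6% and 16.0% in -/- libraries A to C, against 71.6%, 58.9% and 49.0% in flox/flox libraries A to C. Kcnk10 held 15.4%, 17.1% and 26.6% in the -/- libraries, against 1.39%, 2.25% and 3.86% in the flox/flox libraries. The acid-sensitive leak gene Kcnk9 rose 2.30-fold. Kcnk6 fell to 0.424 ± 0.252 CPM in -/- libraries, against 1.27 ± 0.206 CPM in flox/flox libraries (SD, n = 3), a call lost without flox/flox A, flox/flox B or -/- A. Kcnk5 had 11.8, 11.6 and 9.54 CPM in -/- libraries A to C, against 10.4, 13.3 and 15.9 CPM in flox/flox libraries A to C, and did not pass.

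Among potassium channels opened by calcium or sodium, 1 of 8 tested members rose and 1 fell. Kcnmb4, the neuronal beta subunit of the large-conductance channel, measured 7.14, 6.46 and 8.44 CPM in -/- libraries A to C, against 14.1, 12.3 and 12.1 CPM in flox/flox libraries A to C (-0.81 ± 0.13, adjusted p = 0.00323). The groups stood apart, and 31.5% of its exonic bases lie under antisense genes. The pore gene of that channel, Kcnma1, had 3.34 ± 0.908 CPM in -/- libraries and 2.08 ± 0.232 CPM in flox/flox libraries (SD, n = 3) and did not pass (adjusted p = 0.0528). It did pass without -/- A, with no low-count filter, with a block for column letter and with DESeq2. Kcnn2, a small-conductance channel of afterhyperpolarisation, rose 1.98-fold, a call lost without flox/flox A or flox/flox B. Kcnrg, a cytoplasmic regulator of Kv assembly that fits no family, had a log2 difference of 0.36 and did not pass.

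**Figure D4:**
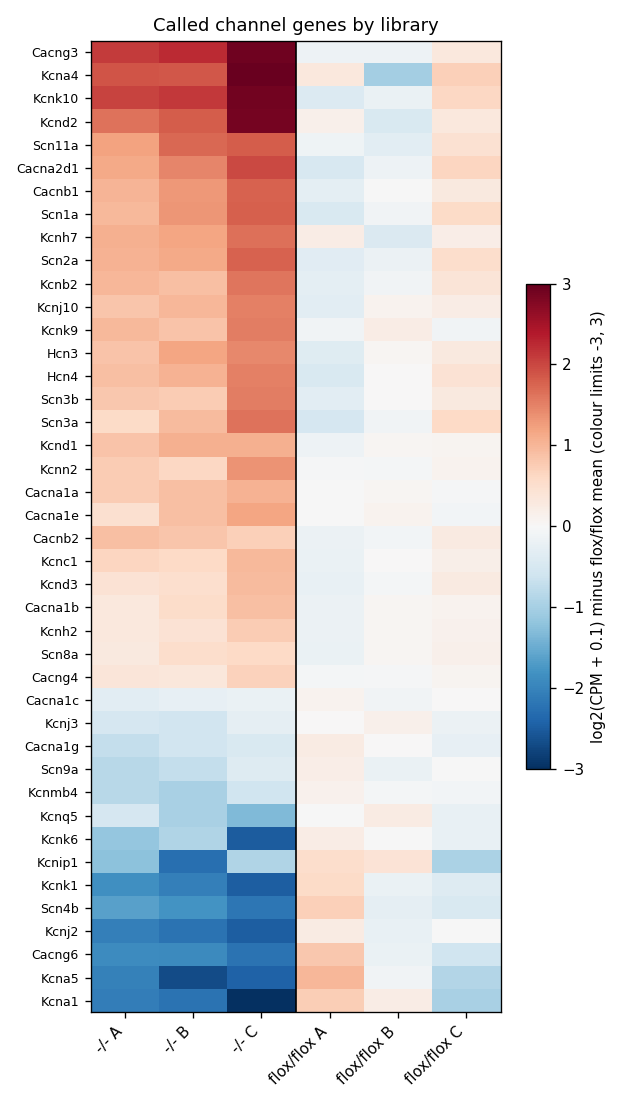
Called channel genes (42 shown) in each library as log2(CPM + 0.1) minus the mean of the flox/flox libraries, ordered by fold change with the largest rise on top and with -/- libraries on the left. Among the falling genes flox/flox A is redder than the other flox/flox libraries for Kcna1, Kcna5, Cacng6 and Scn4b.

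Genes whose products bind or anchor channels rose in 21 of 35 tested and fell in 3, of 38 listed. Of all tested genes, 17.9% rose and 17.4% fell. The median log2 difference of the list was 0.69. Without flox/flox A or flox/flox B, 14 rose. Of the 38, Fgf11, Cntnap1, Stac2 and Vamp2 lie on chromosome 11. With the offset of that chromosome removed, 17 of the list rose and 3 fell. Snap25 is counted both here and among the neuron markers. Unc80 and Nalcn, which encode an auxiliary protein and the pore of the sodium leak channel of neurons, rose 3.82-fold and 2.13-fold. Unc80 had 25.8, 30.7 and 35.2 CPM in -/- libraries A to C, against 4.70, 8.70 and 10.7 CPM in flox/flox libraries A to C. Cntnap2, which clusters Kv1 channels on axons, fell to 54.4 ± 7.10 CPM in -/- libraries, against 98.8 ± 10.9 CPM in flox/flox libraries (SD, n = 3). Stac, an adaptor of L-type calcium channels, fell to 0.333 ± 0.141 CPM in -/- libraries, against 0.968 ± 0.112 CPM in flox/flox libraries (SD, n = 3).

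Pumps and chloride transporters rose in 5 of 15 and fell in 3, where 17.9% of all tested genes rose and 17.4% fell. Atp1b3, a beta subunit of the sodium pump, fell to 64.6 ± 3.71 CPM in -/- libraries, against 89.1 ± 7.53 CPM in flox/flox libraries (SD, n = 3). The sodium-calcium exchanger gene Slc8a3 rose 1.96-fold. Without flox/flox B, 2 of the 15 rose. Of 9 genes of the REST complex, which represses neuronal genes including channel genes, Rest itself fell and the other 8 did not pass, of which 1 rose without -/- A. Rest measured 60.4, 58.2 and 46.9 CPM in -/- libraries A to C, against 114, 93.6 and 87.4 CPM in flox/flox libraries A to C (-0.83, adjusted p = 0.00269), and the groups did not overlap. Whether the change of Rest has a part in those of the channel genes was not tested.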

How the data were processed

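RNA-seq libraries from 3 samples of each line were made with a stranded poly(A) kit, per the labels' protocols. The authors deposited a table of raw read counts per Ensembl gene, and the submitters' processing notes name BWA 0.5.9 and featureCounts 1.4.6. The strand setting and annotation release of the counting were not given in the sources used here. Symbols, positions and exon lengths were taken from GENCODE M21 (GRCm38), and promoter windows from RefSeq (GRCm38.p6). Columns carry letters where the labels carry numbers, so each was assigned to its genotype only. Genes passing filterByExpr (edgeR 4.0.16, minimum count 10, minimum total 15) were tested in R 4.3.3 with edgeR's quasi-likelihood test after TMM scaling. P-values were adjusted by Benjamini-Hochberg over all 20549 genes tested, and a gene was called at an adjusted p under 0.05. CPM uses TMM-scaled library sizes, and length-scaled levels divide it by kb of merged exons. Log2 differences are -/- minus flox/flox, given with their SE. The test was also run on simulated counts with the same dispersion for every gene, few changed genes and no shift of chromosome 11. That setting is simpler than these data, so the run does not check the test for them. Named genes were, by rule, up to 3 called members per direction and family by adjusted p, the member with the highest length-scaled level and the one with the largest change in each family, and up to 2 per direction of each list. Scn8a, and members outside the rule that were untested or not called, were added after their values were seen. The channel genes, families, gene lists and rules were chosen with earlier results of these data known. Intervals cover counting error only. Alternatives were other scalings, filters, thresholds and tools (DESeq2 1.42.0, limma 3.58.1), each library left out, a block for column letter and an offset for chromosome 11. Some items within the rule are not reported here.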

Additional observations from a re-analysis of the deposited data

How the results depend on the processing

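The counts of channel genes that rose and fell were 31 and 15, and at a threshold of 0.01 they were 17 and 9. For all genes that threshold gave 1992 higher and 1895 lower. With 1 library left out, 23 to 34 channel genes rose and 10 to 19 fell, and 2315 to 3510 of all genes rose and 2342 to 3336 fell. The fewest channel calls came without flox/flox B. DESeq2 called 33 and 15, limma-voom 31 and 15, and the absence of a low-count filter 35 and 14. Removing the chromosome 11 offset left 29 and 15, and 2929 higher and 3754 lower of all genes. Cacng4 changed sign, to -0.043, with the chromosome 11 offset removed. With 1 library left out, the difference of Cacnb3 ran from -0.24 to 0.048, above 0 without -/- A, and that of Kcnrg from -0.25 to 0.69, below 0 without -/- C. The cause of the other changes was not tested. Libraries with the same column letter deviated together with correlations of 0.26, 0.096 and 0.26 for A, B and C. Pairs with unlike letters ran from -0.29 to 0.031. The labels do not say that the letters pair the samples, so the main fit was not paired, and a shared batch per letter was not excluded. With a replicate block for the letter, 40 channel genes rose and 19 fell, and 4358 and 4171 of all genes. The block kept 31 of the 31 rises and 14 of the 15 falls, all but Kcnj3. Each library correlated best with its own letter, a hint from the data and not from the design. The low-count filter left out genes under about 0.34 CPM, and without it Kcne3 and Kcnk16 were called higher and Kcnmb1 (chromosome 11) lower.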
